A study of Rattus norvegicus with 23 samples.

Results

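Nr4a1, Nr4a2 and Nr4a3 are the 3 members of a family of orphan nuclear receptors, and their transcripts were followed here in 3D aggregates of rat brain cells exposed to sepiapterin. The genes were taken by Ensembl identifier, as ENSRNOG00000007607 for Nr4a1, ENSRNOG00000005600 for Nr4a2 and ENSRNOG00000005964 for Nr4a3, which makes 3 of the 32494 genes in the count tables. The family was chosen by a measured value. In an earlier account of the same data Nr4a2 was higher with sepiapterin when the 3 exposure times were averaged, so every sepiapterin contrast of these genes is given as a description with no test. Changes with time were tested. Those between control groups compare control libraries alone, but sepiapterin libraries in the same fits add to the estimate of spread. Controls of T6, T12 and T24 entered the averaged contrast as well, so these tests are not independent of the choice. The test of T12 against T6 with sepiapterin also uses libraries that entered it.

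The aggregates were made of brain cells of Sprague Dawley rats at embryonic day 15 and had been grown for 14 days. They received sepiapterin at 120 ng/ml or phosphate-buffered saline (PBS) as control, and RNA was sequenced at 3 times, after 6 hours (T6), 12 hours (T12) or 24 hours (T24). Controls at the outset (T0) completed 7 groups of 3 libraries. Samples 10 and 11, both T12 controls, had a repeat library each, which made 23 libraries. Sepiapterin is a pteridine that cells turn into tetrahydrobiopterin, the cofactor of tyrosine hydroxylase and of the nitric oxide synthases. The labels do not say whether replicates came from separate cultures, so the p-values measure the spread between these libraries, which may be technical. An aggregate is a mixture of cell types measured as bulk RNA, and fewer cells that express a gene cannot be told apart from less RNA of it per cell. Marker genes of the cell types were not analysed here, because the tables name genes by identifier alone.

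Depth ran from 16991417 to 26588314 reads in genes per library. By label T6 and T12 libraries form a first batch of preparation and T24 libraries with the repeats a second. No batch is stated for T0. For samples 10 and 11 the titles and the headers inside the files disagree on which library is the repeat. Groups follow the titles, and results with T12 controls are also given by file header. Among the T0 controls, replicate 1 had the lowest Nr4a1 and Nr4a3 and the highest Nr4a2, and T0 results are given with and without it.

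Nr4a receptors are called orphans because no hormone is established as their ligand, and they act largely through how much of them is made. They are immediate-early genes, transcribed within a short time of depolarisation, growth factors or stress, in part through the cyclic AMP response element binding protein CREB. The proteins bind the NGFI-B response element (NBRE) as monomers, and Nr4a1 (Nur77) and Nr4a2 (Nurr1) also pair with retinoid X receptors, which Nr4a3 (Nor1) does not. Nr4a2 is best known for the midbrain dopamine neurons, which need it to form and to express tyrosine hydroxylase. Nr4a1 is the member most often used as a marker of recent neuronal activity, and Nr4a3 is induced by many of the same signals.

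The stretches before the annotated starts of Nr4a1 and Nr4a2 are shown because CREB acts on such promoters. Of the 3 members, 2 matched by symbol to the RefSeq promoter table (GRCr8), and Nr4a3 was not matched. Each stretch is the 250 bases that end directly before the start, and both lie inside the span annotated for their gene, which has several transcripts. Capitals mark half-sites of the CREB element, TGACG on either strand, and the longer TGCGTCA. The Nr4a1 stretch is chr7:134259888-134260137 on the plus strand and the Nr4a2 stretch is chr3:62104888-62105137 on the minus strand.
Nr4a1: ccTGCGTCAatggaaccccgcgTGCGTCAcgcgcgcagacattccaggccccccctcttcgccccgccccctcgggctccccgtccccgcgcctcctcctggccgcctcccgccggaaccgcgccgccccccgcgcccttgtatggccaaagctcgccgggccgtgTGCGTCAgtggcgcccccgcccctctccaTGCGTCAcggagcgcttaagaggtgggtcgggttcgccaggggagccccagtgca
Nr4a2: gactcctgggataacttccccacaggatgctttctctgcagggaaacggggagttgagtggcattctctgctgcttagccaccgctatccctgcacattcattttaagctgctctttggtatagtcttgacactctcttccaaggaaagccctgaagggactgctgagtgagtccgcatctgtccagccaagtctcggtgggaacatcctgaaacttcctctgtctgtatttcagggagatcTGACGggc

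The Nr4a1 stretch held 4 copies of TGCGTCA, whose first bases lie at -248, -228, -84 and -55 from the start. Each of them contains the half-site CGTCA, the reverse complement of TGACG, so the 4 half-sites and the 4 longer matches are the same places. TGCGTCA, on either strand, was found in 1.66% of 33469 RefSeq promoters over the same 250 bases, and TGACG in 18.2%. The Nr4a2 stretch held 1 TGACG, at -8, and no TGCGTCA. The letters TGCGTCA were picked after the Nr4a1 sequence had been read. Neither stretch held the palindrome TGACGTCA, present in 1.59% of promoters, the NBRE letters AAAGGTCA, present in 1.24%, or TATAAA, present in 12.9%. G and C made up 74.8% of the Nr4a1 stretch and 52.0% of the Nr4a2 stretch, against a median of 51.2%. These are matches of letters and do not show binding. Other starts of these genes were not read, so neither stretch need be the promoter used in these cells. The values therefore do not compare the promoters of the 2 genes as a whole.

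Levels are read counts relative to library size (CPM), scaled by the trimmed mean of M-values (TMM). Nr4a1 had 86 to 357 reads per library, Nr4a2 1120 to 1987 and Nr4a3 858 to 1457, which by counting alone gives errors of 5.29 to 10.8%, 2.24 to 2.99% and 2.62 to 3.41%. Nr4a1 is thus the least precisely measured member. CPM is not divided by transcript length, so levels were compared between groups for 1 gene and not between genes. From the lowest to the highest of the 7 group means, Nr4a1 spanned 2.55-fold, Nr4a2 1.40-fold and Nr4a3 1.25-fold. These spans take in groups of different batches.

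**Figure D1:**
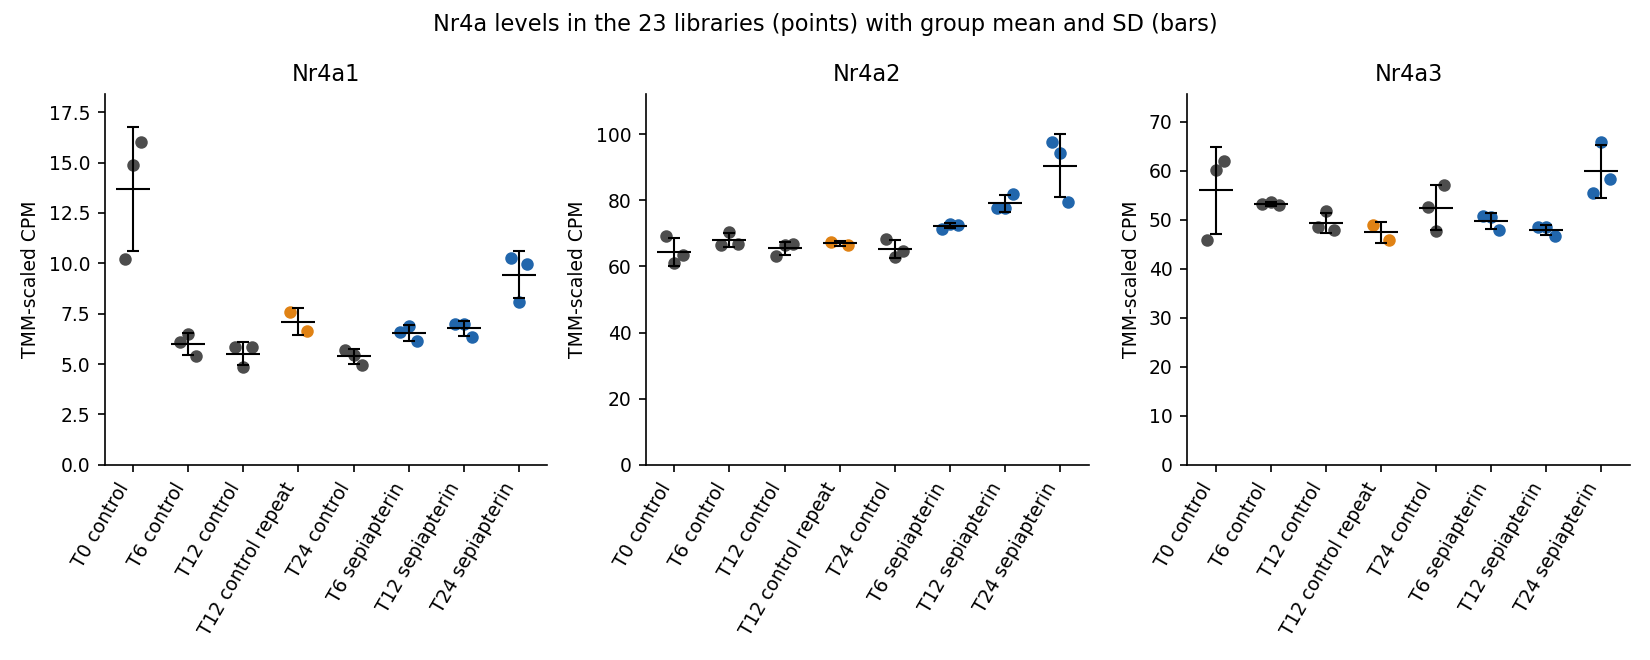
TMM-scaled CPM (y axis) of Nr4a1, Nr4a2 and Nr4a3 in each library (points) by group (x axis), with group mean and SD as bars; controls are grey, the libraries titled as T12 repeats orange and sepiapterin libraries blue. Nr4a1 is highest in T0 controls at 10.2 to 16.03 CPM, and Nr4a2 reaches 97.7 CPM with sepiapterin at T24.

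In control aggregates Nr4a1 fell between T0 and T6 while neither of the other members passed the test. Nr4a1 stood at 10.2, 14.9 and 16.03 CPM in the T0 controls and at 6.09, 6.49 and 5.40 CPM in the T6 controls. Every T0 library lay above every T6 library, and the lowest T0 value was that of replicate 1. The mean went from 13.7 ± 3.08 to 5.99 ± 0.55 CPM (SD, n = 3 each). The edgeR fit gave a 2.26-fold fall, or -1.18 ± 0.13 (SE) on the log2 scale, with an adjusted p of 1.1e-06. It was the 21st lowest of 14035 log2 fold changes in this contrast. Without T0 control replicate 1 the log2 fold change was -1.34, and all 11 alternatives kept the call, with adjusted p-values of 4.8e-13 to 0.0069.

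Nr4a2 and Nr4a3 moved little over the same interval. Nr4a2 stood at 69.1, 60.9 and 63.3 CPM at T0 and at 66.5, 70.3 and 66.7 CPM at T6, and the groups overlapped. Its log2 fold change was 0.08 ± 0.06 (SE), with a 95% interval of -0.04 to 0.20 and an edgeR adjusted p of 0.37. Nr4a3 stood at 45.9, 60.2 and 62.0 CPM at T0 and at 53.3, 53.8 and 53.0 CPM at T6. Its T0 values surrounded the narrow T6 group, with replicate 1 below and the other libraries above. The log2 fold change was -0.06 ± 0.08 (edgeR adjusted p 0.63). Without T0 control replicate 1 it was -0.18 ± 0.06, with an adjusted p of 0.043, so the call for Nr4a3 turned on that library. Limma voom with quality weights called both genes, Nr4a2 at 0.13 (adjusted p 0.035) and Nr4a3 at -0.16 (adjusted p 0.042). With edgeR 1 of the 3 members was called, against 21.6% of all genes tested, and whether T0 and T6 libraries were prepared together is not given.

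Ratios of members within each library, where scaling between libraries has no part, were compared after the data had been seen, in a design that cannot pass the threshold. Nr4a1 took 8.15, 10.9 and 11.3% of the reads of the 3 genes in T0 controls and 4.32 to 4.98% in T6 controls. The log2 ratio of Nr4a1 to Nr4a2 changed by -1.25 on average from T0 to T6, and that of Nr4a1 to Nr4a3 by -1.11. For both ratios the T0 and T6 libraries did not overlap, which gives p = 0.1 in a two-sided exact permutation test, the smallest value possible with 3 libraries against 3 (adjusted 0.15 over the 3 pairs of genes). For Nr4a2 to Nr4a3 the ratio differed by 0.14 (exact permutation p = 0.40). Without T0 control replicate 1 that difference was 0.32, and the T0 libraries, at 0.015 and 0.030, lay below every T6 control. The ratios with Nr4a1 then changed by -1.50 over Nr4a2 and -1.17 over Nr4a3. These values without replicate 1 were not tested.

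**Figure D2:**
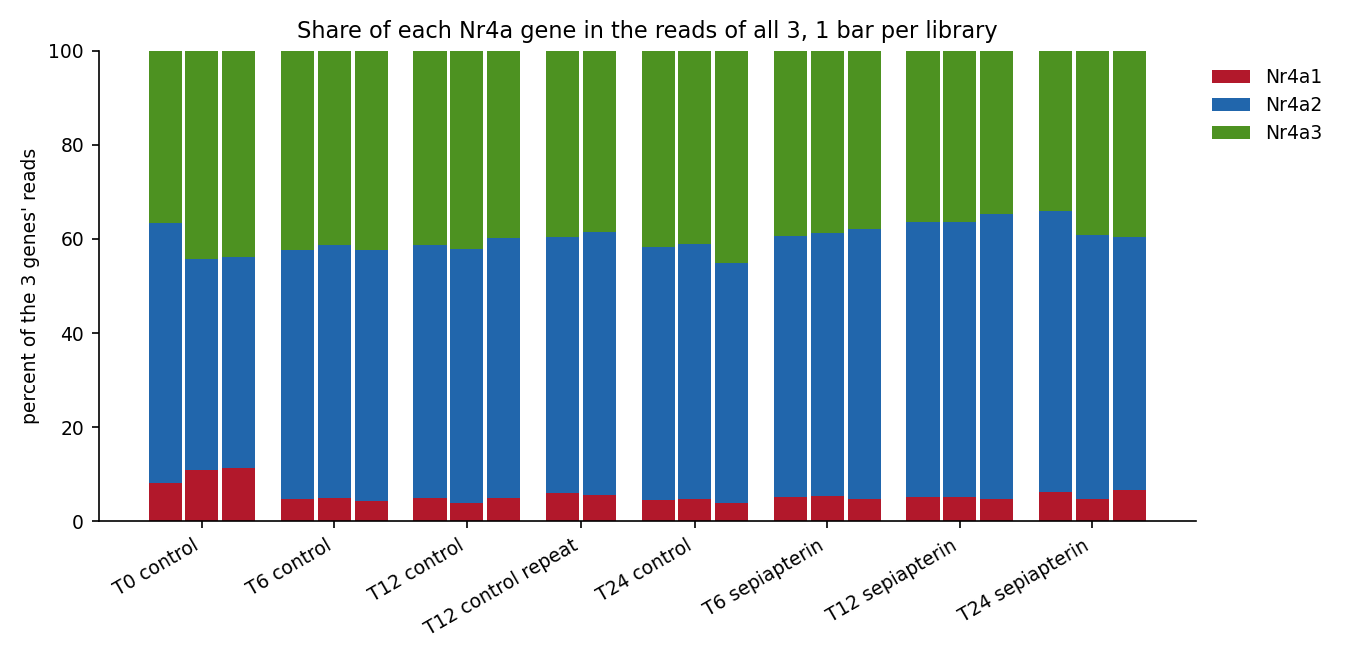
Percent of the reads of the 3 genes together that each gene takes (y axis), with 1 stacked bar per library, grouped along the x axis. Nr4a1 takes 8.15 to 11.3% in T0 controls and 3.91 to 6.74% in the other 20 libraries; reads are not divided by transcript length.

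No member passed the test between T6 and T12, in controls or with sepiapterin. In controls Nr4a1 went from 5.99 ± 0.55 to 5.52 ± 0.58 CPM, Nr4a2 from 67.8 ± 2.12 to 65.4 ± 1.91 CPM and Nr4a3 from 53.3 ± 0.40 to 49.4 ± 2.04 CPM (SD, n = 3 each). The log2 fold changes were -0.13 ± 0.15, -0.06 ± 0.06 and -0.12 ± 0.08 (SE), with edgeR adjusted p-values of 0.67, 0.63 and 0.46. Thus 0 of 3 members were called, where 4.67% of all genes were. By file header the value of Nr4a1 turned to 0.14, and those of Nr4a2 and Nr4a3 kept their sign. With sepiapterin, where no title is in doubt but the same libraries entered the contrast that chose the family, Nr4a2 stood at 71.4, 72.8 and 72.7 CPM at T6 and at 77.7, 77.5 and 81.9 CPM at T12. These groups did not overlap, yet the log2 fold change of 0.12 ± 0.06 (SE) had an adjusted p of 0.24. Nr4a1 and Nr4a3 differed there by 0.04 ± 0.14 and -0.06 ± 0.08, again with 0 of 3 members called, against 4.37% of all genes.

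The balance between Nr4a2 and Nr4a3 was followed from T6 to T12 by the log2 ratio within each library. This ratio was 0.32 to 0.39 in T6 controls, 0.36 to 0.48 in T12 controls, 0.49 to 0.60 with sepiapterin at T6 and 0.68 to 0.81 with sepiapterin at T12. It overlapped between times in controls, where the mean difference was 0.058, and did not with sepiapterin, where it was 0.18. In controls alone the two-sided exact permutation p was 0.30, and 0.1 is the smallest that 3 libraries against 3 can give. Over both treatments the mean difference was 0.12, with p = 0.015 in a two-sided exact permutation test within treatments and 0.045 after adjustment over the 3 pairs of genes. Libraries of both treatments entered the choice of the family, so the pooled p is not independent of that choice. Those with sepiapterin gave most of the mean difference. Ratios that involve Nr4a1 did not pass by title (p = 0.32 and 0.51 in the same exact permutation test). By file header Nr4a1 over Nr4a3 rose by 0.21 (exact permutation, adjusted p 0.015), Nr4a2 over Nr4a3 by 0.16 (adjusted p 0.015), and Nr4a1 over Nr4a2 differed by 0.050 (adjusted p 0.57). In controls alone by file header the differences were 0.32, 0.14 and 0.18 in the same order, with adjusted p of 0.15, 0.15 and 0.3, none of which could pass. By title the pooled call for Nr4a2 to Nr4a3 was lost on leaving out any of 7 of the 12 libraries. The adjusted p in the same exact permutation test was then 0.06 to 0.09, with ratios of 0.098 to 0.13. Leaving out a library also raises the smallest p that this test can give from 0.005 to 0.01. A call was still possible, as without T6 control replicate 2 (exact permutation, adjusted p 0.03). How far the coarser test accounts for the lost calls was not tested. Without T12 sepiapterin replicate 1 the ratio was 0.13, larger than with all libraries, and the adjusted p was 0.06.

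Between T12 and T24 the reading of Nr4a1 depended on which libraries were the repeats. T24 controls stood at 5.71, 5.46 and 4.95 CPM, below the libraries titled as repeats at 7.58 and 6.63 CPM. The log2 fold change was -0.40 ± 0.14 (SE), with an edgeR adjusted p of 0.093 over 13653 genes, and limma voom with quality weights called it (adjusted p 0.043). With the libraries titled 10 and 11 in their place, as the headers have it, the log2 fold change was 0.01 ± 0.15. Nr4a2 went from 67.0 ± 0.80 (n = 2) to 65.2 ± 2.67 CPM (n = 3) and Nr4a3 from 47.5 ± 2.16 to 52.5 ± 4.64 CPM, with adjusted p-values of 0.79 and 0.30. None of the 3 members was called by edgeR, against 5.54% of all genes.

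Nr4a1 differed between the libraries of samples 10 and 11 in the same direction. Sample 10 read 5.84 CPM in the library titled 10 and 7.58 CPM in the library titled as its repeat, a 1.299-fold difference. Sample 11 read 4.85 and 6.63 CPM, a 1.37-fold difference. The counts behind them were 120 and 154 reads for sample 10 and 95 and 135 for sample 11. Their exact 95% Poisson intervals overlapped in both samples, at 99.5 to 143 and 131 to 180 reads for the first and 76.9 to 116 and 113 to 160 for the second, and cover counting error only. Such overlap is not a test of a difference, and the difference between the paired libraries was not tested. Nr4a2 differed 1.07-fold in sample 10 and 1.00-fold in sample 11. Nr4a3 read 48.6 and 49.0 CPM in sample 10 and 51.8 and 45.9 CPM in sample 11.

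**Figure D3:**
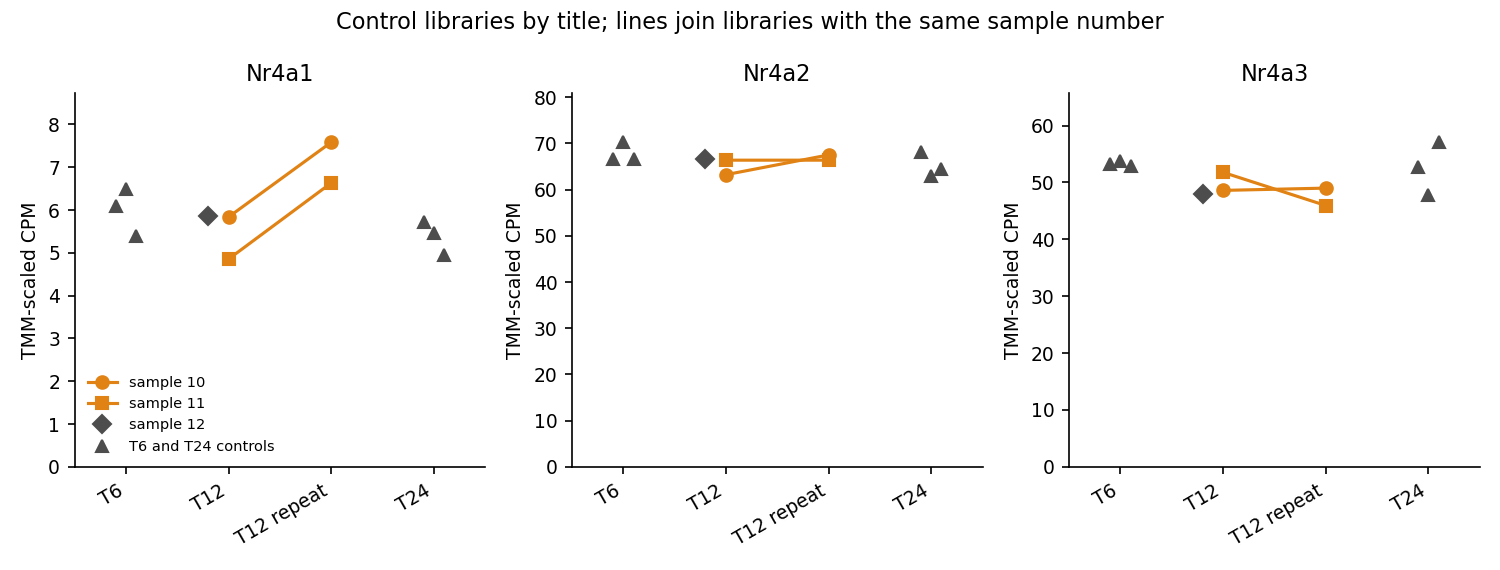
TMM-scaled CPM (y axis) of each gene in the control libraries of T6, T12, the T12 repeats and T24, grouped by title (x axis); orange lines join the libraries of samples 10 and 11. In both samples Nr4a1 is higher in the library titled as the repeat (7.58 against 5.84 and 6.63 against 4.85 CPM).

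With sepiapterin at T6 the members stood close to their controls. Nr4a1 stood at 6.59, 6.88 and 6.12 CPM, against 5.40 to 6.49 CPM in controls, and overlapped with them. Nr4a2 stood at 71.4 to 72.8 CPM against 66.5 to 70.3 CPM, a narrow gap between groups. Nr4a3 lay the other way, at 48.0 to 50.7 CPM against 53.0 to 53.8 CPM. The log2 fold changes were 0.12 ± 0.14, 0.09 ± 0.06 and -0.10 ± 0.08 (SE), and leaving out single libraries took that of Nr4a1 to between 0.053 and 0.19. Sepiapterin libraries were all above the controls for 1 of 3 members, Nr4a2, and for 5.29% of all genes. They were all below the controls for Nr4a3, and the share of all genes that lay wholly below was not counted.

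By T12 Nr4a2 was higher with sepiapterin under both groupings of the controls, and Nr4a1 under the titles alone. Nr4a2 stood at 77.7, 77.5 and 81.9 CPM against 63.2, 66.4 and 66.7 CPM in controls, with no overlap and a log2 fold change of 0.27 ± 0.06 (SE). With controls by file header, at 66.4 to 67.5 CPM, the value was 0.24. Nr4a1 stood at 6.97, 6.98 and 6.35 CPM against 5.84, 4.85 and 5.86 CPM, a log2 fold change of 0.29 ± 0.14. By file header the controls stood at 5.86 to 7.58 CPM and surrounded the sepiapterin libraries, and the log2 fold change was 0.02 ± 0.14. Nr4a3 stood at 46.8 to 48.5 CPM against 48.0 to 51.8 CPM (-0.04 ± 0.08). By title 2 of 3 members lay wholly above the controls, against 10.6% of all genes. By file header 1 of 3 did, against 11.1% of all genes.

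The differences were largest at T24, where no library with a disputed title takes part. Nr4a1 stood at 10.3, 8.10 and 9.97 CPM with sepiapterin and at 5.71, 5.46 and 4.95 CPM in controls. The lowest sepiapterin library was well above the highest control. The means of 9.44 ± 1.17 and 5.38 ± 0.39 CPM (SD, n = 3 each) gave a 1.76-fold difference and a log2 fold change of 0.81 ± 0.15 (SE). That was the 129th highest of 14035 log2 fold changes, beside a median of 0.01 over all genes. Nr4a1 with sepiapterin at T24 reached up to the lowest T0 control, replicate 1 at 10.2 CPM, and without that replicate lay below the T0 controls at 14.9 and 16.03 CPM. As no batch is stated for T0, this comparison may cross batches.

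Nr4a2 stood at 97.7, 94.3 and 79.5 CPM with sepiapterin at T24 and at 68.1, 62.9 and 64.5 CPM in controls. Replicate 3 was the lowest of the sepiapterin libraries and still above every control library. The means of 90.5 ± 9.64 and 65.2 ± 2.67 CPM gave a 1.39-fold difference and a log2 fold change of 0.47 ± 0.06 (SE), which was 0.56 without sepiapterin replicate 3. For Nr4a1 and Nr4a3 the lowest sepiapterin library was another one. Nr4a3 stood at 55.5, 65.9 and 58.4 CPM against 52.7, 47.8 and 57.1 CPM, with overlap and a log2 fold change of 0.19 ± 0.08, which was 0.12 without sepiapterin replicate 2. Thus 2 of 3 members lay wholly above the controls, where 11.5% of all genes did. As these contrasts chose the family, nothing further is read from the counts.

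**Figure D4:**
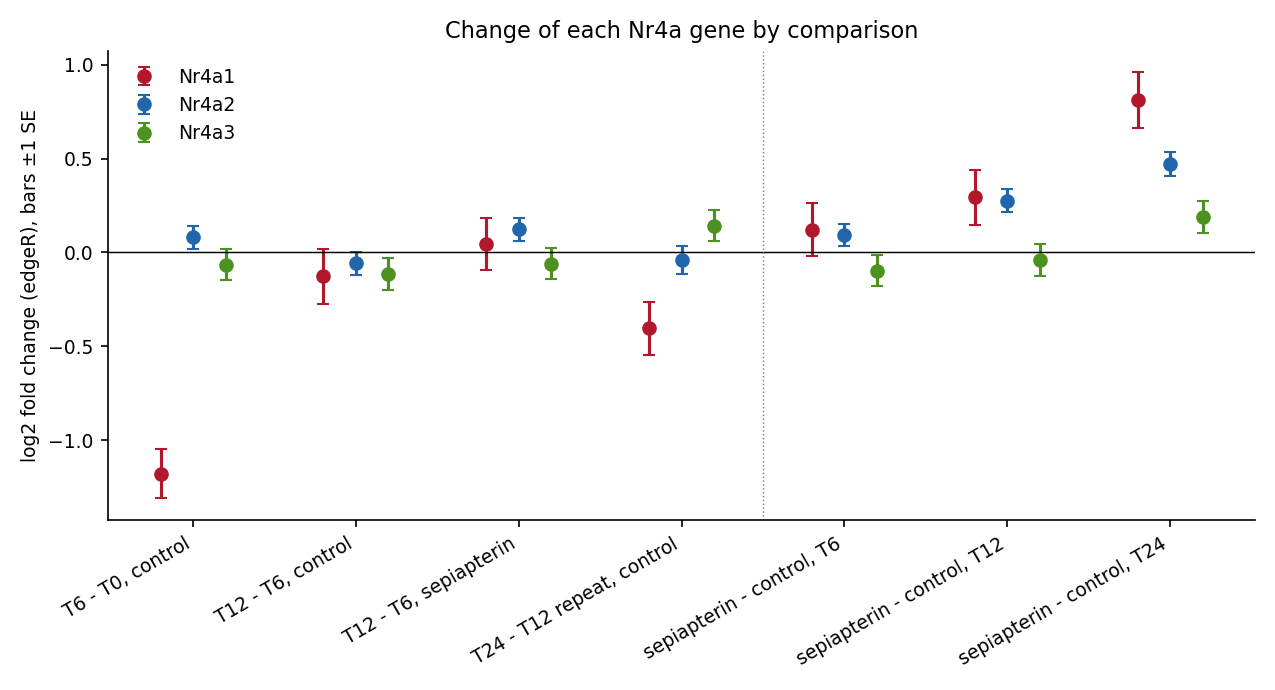
Log2 fold change with 1 SE (y axis) of each member in each comparison (x axis); comparisons of time, left of the dotted line, were tested, and sepiapterin contrasts, right of it, are descriptions. Nr4a1 has -1.18 from T0 to T6 and stands 0.81 higher with sepiapterin at T24; by file header the T12 value of Nr4a1 is 0.02 and the T24 against T12 value is 0.01.

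Averaged over the 3 times, the log2 difference with sepiapterin was 0.41 ± 0.08 (SE) for Nr4a1, 0.28 ± 0.04 for Nr4a2 and 0.02 ± 0.05 for Nr4a3. By file header the averages of Nr4a1 and Nr4a2 were 0.32 and 0.27. Nr4a2 took 55.5 to 57.3% of the reads of the 3 genes with sepiapterin at T6, above its 52.9 to 53.8% in controls. At T12 it took 58.3 to 60.7%, against 53.7 to 55.3% in controls. At T24 it took 53.8 to 59.8% with sepiapterin and 51.0 to 54.2% in controls, with overlap. Nr4a3 took 41.1 to 45.1% of the reads in T24 controls and 34.0 to 39.5% with sepiapterin.

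The order of the 7 groups differed between members. By label T24 libraries form another batch than those of T6 and T12, and no batch is stated for T0. Differences in this order between T24 or T0 and the other times thus cannot be told apart from batch. For Nr4a1 the order ran from T0 controls at 13.7 CPM and sepiapterin at T24 at 9.44 CPM, which met at T0 replicate 1 alone, to the other 5 groups at 5.38 to 6.77 CPM. Those 5 did not overlap with sepiapterin at T24, while each overlapped with its neighbour in the order. By file header the T12 controls, at 6.69 CPM, moved up among them to lie between sepiapterin at T12 and at T6. For Nr4a2 the 3 sepiapterin groups came first, at 90.5, 79.0 and 72.3 CPM for T24, T12 and T6. The groups at T24 and T12 overlapped, that at T12 did not overlap with that at T6, nor that at T6 with the T6 controls, and the 4 control groups followed at 64.4 to 67.8 CPM with overlap between neighbours. For Nr4a3 every group overlapped with the next, from 59.9 CPM with sepiapterin at T24 to 47.9 CPM with sepiapterin at T12. Groups further apart could still separate. Sepiapterin at T24, at 55.5 to 65.9 CPM, lay above every T6 and T12 library, the highest of which was a T6 control at 53.8 CPM. The T6 controls also lay wholly above sepiapterin at T6. By file header the T12 controls came last for Nr4a3, at 47.6 CPM, and without replicate 1 the T0 controls came first, at 61.1 CPM.

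Likeness of pattern was described by Pearson's r over the 7 group means of log2 CPM, among 14179 other genes, and with so few points high values are common. These groups share libraries with the contrasts above, and no p is given. The values follow the titles with all T0 controls, and were not computed by file header or without T0 control replicate 1. Nr4a3 ranked 1929th by likeness to Nr4a1 (r 0.62) and Nr4a2 ranked 5755th (r 0.19). Nr4a3 ranked 3523rd by likeness to Nr4a2 (r 0.33). The most alike gene was ENSRNOG00000056457 for Nr4a1 (r 0.99), ENSRNOG00000012728 for Nr4a2 (r 0.98) and ENSRNOG00000001245 for Nr4a3 (r 0.98). ENSRNOG00000056457 stood at a geometric mean of 4.09 CPM in T0 controls, 2.41 CPM in T6 controls and 3.47 CPM with sepiapterin at T24. ENSRNOG00000012728 stood at 11.0 CPM in T24 controls and 17.2 CPM with sepiapterin at T24. ENSRNOG00000001245 spanned only 1.12-fold from its lowest to its highest group. The files do not pair these identifiers with names.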

How the data were processed

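The authors deposited raw read counts per Ensembl gene, 1 table per library, with 5 summary lines that name no gene. Reads outside genes made up 14.8 to 17.1% of the alignments tallied, those with several alignments 23.5 to 25.0% and ambiguous ones 0.22 to 0.27%; all were left out. Cutadapt 1.8, STAR 2.5.2b, HTSeq 0.6.1 and the build Rnor_6.0 are named in the submitters' processing notes. Libraries were stranded per the labels' protocols. How strand was treated in counting, and which annotation was used, is not given here, so reads of overlapping or antisense genes may be mixed. Reads with several alignments were set aside, so any stretch that paralogs share would go uncounted.

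Counts were fitted with edgeR 4.0.16 in R 4.3.3 (quasi-likelihood, robust, TMM, filterByExpr with a minimum count of 10), in 21 libraries of 7 groups, with 14 residual degrees of freedom. T24 against T12 was fitted in 8 libraries titled as the second batch. Genes were called at a Benjamini-Hochberg adjusted p below 0.05 over all genes tested. SE is the log2 fold change over the root of F, and 95% intervals are normal. Ratios used exact permutation; the T6 against T0 ratios, and ratios in controls alone, were added after seeing the data. Likeness used log2(CPM + 0.5). Fits and ratio tests were checked on simulated data. The simulated ratios had counting error alone and more reads than Nr4a1 has. They do not cover its low counts or a wider spread between replicates. Alternatives were DESeq2 1.42.0, limma 3.58.1 voom, other scaling, filter and groupings, and leaving out each library. The members and lists were chosen with earlier results of these data known. Named genes are the 3 members and the most alike gene of each. None of the 32494 identifiers matched a symbol in the GRCr8 gene table, so the other 9 of 10 gene lists were not tested.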

Additional observations from a re-analysis of the deposited data

How the results depend on the processing

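Of 137 alternative values of the tested fold changes, 128 kept direction and side of the threshold, as did 37 of 51 for the ratios, and 174 of 177 descriptive sepiapterin values moved by less than the spread between replicates. DESeq2 gave no adjusted p for Nr4a1 in T24 against T12, so that value is not among the 137. Grouping by file header changed most. It turned Nr4a1 to 0.14 for T12 against T6 in controls and to 0.011 for T24 against T12, and Nr4a2 to 0.013 there. It took sepiapterin at T12 to 0.020 for Nr4a1 and 0.010 for Nr4a3, and the ratio of Nr4a1 to Nr4a2 from T6 to T12 to 0.050, with Nr4a1 to Nr4a3 now past the threshold at 0.21. Summing both libraries of samples 10 and 11 gave Nr4a1 0.023 for T12 against T6 and 0.14 for sepiapterin at T12. For these the cause was not tested. Voom called 3 values that edgeR did not: T6 against T0 at 0.13 for Nr4a2 and -0.16 for Nr4a3, and T24 against T12 at -0.40 for Nr4a1. Sepiapterin libraries alone gave a ratio of Nr4a2 to Nr4a3 of 0.18, and control libraries alone, added after seeing the data, 0.058 by title and 0.14 by file header, which 3 libraries a group cannot call. Control libraries alone also turned Nr4a1 to Nr4a3 to -0.011 by title and Nr4a1 to Nr4a2 to 0.18 by file header. Leaving out single libraries gave 0.098 to 0.13 for Nr4a2 to Nr4a3 over both treatments, and -0.18 to 0.0094 for Nr4a3 from T0 to T6, positive without T0 control replicate 3.

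The number of genes called, 3035, 655, 614 and 757 for T6 against T0, T12 against T6 in controls and with sepiapterin, and T24 against T12, was 4714, 2797, 2118 and 2266 with voom and 1644, 1523, 1035 and 1434 with only the groups compared. By file header it was 167 for T12 against T6 and 79 for T24 against T12, with summed libraries 342 for T12 against T6, and with no filter 1256 for T24 against T12. Leaving out single libraries gave 2030 to 3200, 77 to 1398, 98 to 561 and 22 to 1208. No paired analysis was possible because the groups share no replicate number in the labels. At 86 to 357 reads per library, counting error limits Nr4a1 most.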
